A study of Mus musculus with 28 samples.

Results

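Livers of Aag null mice were compared with livers of wild-type (WT) mice 24 and 48 h after exposure to methyl methanesulfonate (MMS), a chemical that methylates DNA. The comparison used 11 of the 28 Affymetrix MG-U74Av2 arrays of the series, chosen by genotype, treatment and time alone. They were 4 Aag arrays at 24 h, 2 WT arrays at 24 h, 3 Aag arrays at 48 h and 2 WT arrays at 48 h, all from MMS-treated mice. Aag here stands for the Aag null genotype, the way the sample labels name it. Strain, sex, age and MMS dose are not in the labels. Nothing there tells whether the replicates came from different mice, so the p-values reflect only the spread between these samples, and that may be technical. No untreated array entered, so a genotype difference already present before MMS and a difference in the response to MMS cannot be told apart. The number of arrays limits the precision.

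The Aag enzyme, encoded by the mouse gene Mpg, is a DNA glycosylase. It finds bases damaged by alkylation, such as 3-methyladenine, cuts them from the sugar backbone and leaves an abasic site that the other enzymes of base excision repair cut, fill and seal. In mouse tissues the intermediates of this pathway can be more toxic than the damaged base, and loss of the enzyme is known to change how tissues survive alkylating agents. In liver, hepatocytes also answer injury with an acute phase response, in which cytokines and glucocorticoids raise the secretion of plasma proteins.

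Values are log2 signals of 1 probe set per gene, and a difference is Aag minus WT, so that a positive value means higher in Aag. Differences were fitted with limma with time as a term, over the 5071 genes of 8251 that were above the array median in at least 2 of the 11 arrays. A gene was called where its limma adjusted p was under 0.05.

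The arrays of a group correlated at 0.972 to 0.991 across genes among the Aag 24 h arrays, at 0.985 between the WT 24 h arrays, at 0.985 to 0.990 among the Aag 48 h arrays and at 0.959 between the WT 48 h arrays. The hybridization controls, foreign transcripts added to each sample, averaged 8.21 to 8.49 on the Aag 24 h arrays and 8.40 and 8.49 on the WT 24 h arrays. At 48 h they averaged 8.11 to 8.29 on the Aag arrays and 7.55 and 7.19 on the WT arrays, so they moved with genotype there. The spread of all signals moved with genotype too at 48 h, with interquartile ranges of 2.47 to 2.5 on the Aag arrays and 2.54 and 2.58 on the WT arrays. Aag 24 h replicates 1 and 2 carried female-typical transcripts, described further on. The muscle actin Acta1 was high on Aag 24 h replicate 4 (7.24), Aag 48 h replicate 1 (6.86) and WT 48 h replicate 1 (7.63), and lay from 3.29 to 3.87 on the other arrays. Reg3b, a pancreatic and gut transcript, was 8.12 on Aag 24 h replicate 2 and 4.96 to 5.29 elsewhere. The hepatocyte transcript Alb, serum albumin, was 12.27 to 12.66 on the Aag arrays and 12.19 to 12.41 on the WT arrays.

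Mpg was dim on all 11 arrays and did not enter the test of 5071 genes. Its log2 signal was 2.34, 2.29, 2.58 and 2.37 on the Aag arrays at 24 h, against 2.65 and 2.65 on the WT arrays. At 48 h it was 2.33, 2.39 and 2.54 on the Aag arrays, against 2.5 and 2.84 on the WT arrays. Within 24 h every Aag array was below both WT arrays, whereas at 48 h Aag replicate 3 was above WT replicate 1. Over all 8251 genes the limma difference was -0.25 (SE 0.08, adjusted p = 0.438). An exact two-sided permutation of genotype within each time, over 150 arrangements, gave p = 0.02 for a mean difference of -0.25. All 11 values were below the lowest array median, 4.09. The sources used here do not place the Mpg probes relative to the deletion.

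No gene was called between Aag and WT livers over both times. In limma, 0 of 5071 genes (0%) had an adjusted p under 0.05, and the smallest was 0.209. At an unadjusted p under 0.05 there were 551 genes (10.9%), of which 285 (5.62%) were higher in Aag and 266 (5.25%) lower. That count depended on single WT arrays, at 297 and 1062 without WT 24 h replicates 1 and 2 and at 1037 and 362 without WT 48 h replicates 1 and 2. At this number of arrays the median SE of a difference was 0.0829, beside a median size of 0.0848. The 95% interval of the difference lay within a 1.5-fold change either way for 4846 genes (95.6%) and within a 2-fold change for 5036 (99.3%). Without Aag 24 h replicates 1 and 2 there were again 0 calls (0%), with 374 genes (7.38%) at an unadjusted p under 0.05, of which 192 (3.79%) were higher and 182 (3.59%) lower.

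**Figure D1:**
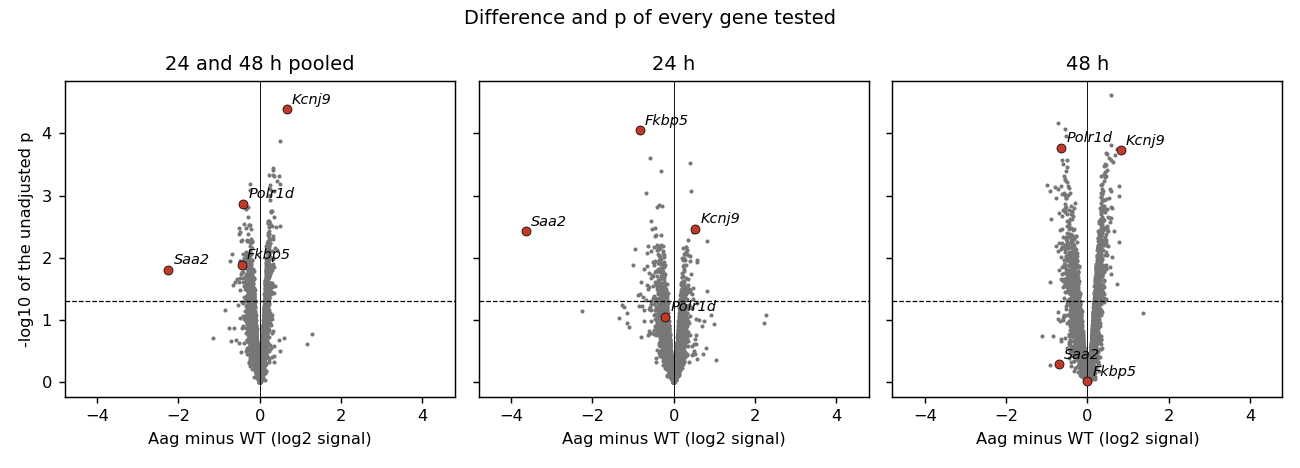
Difference between Aag and WT livers (horizontal axis, log2 signal) against the -log10 of the unadjusted limma p (vertical axis) for each of 5071 genes, over both times, at 24 h and at 48 h. The dashed line is an unadjusted p of 0.05 and 4 genes are marked in red; the 48 h panel has the most genes above the line (918), the 24 h panel the fewest (282), and no gene passes after adjustment.

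The 10 genes of smallest p among those higher in Aag were Kcnj9, A4galt, Hes5, Fzd7, Rnf225, Hoxd9, Tax1bp3, Ovgp1, Tnp1 and Sh3bgrl3. Rnf225 (3.83 to 4.45), Hes5 (4.12 to 4.7), Fzd7 (4.3 to 4.84) and Ovgp1 (3.9 to 4.71) lay near the array medians of 4.09 to 4.16. A4galt, Hoxd9, Tax1bp3 and Tnp1 were brighter. The interquartile ranges moved with genotype at 48 h, and their part in these differences was not tested. Kcnj9, a potassium channel subunit known from brain, led the 10 genes. Its signal was 4.64, 5.04, 4.76 and 4.72 on the Aag arrays at 24 h, against 4.01 and 4.52 on the WT arrays. The 48 h values were 5.23, 5.37 and 5.33 on the Aag arrays, against 4.50 and 4.48 on the WT arrays. All 7 Aag arrays were above all 4 WT arrays, and the difference of 0.66 (SE 0.11, 1.58-fold) had a limma adjusted p of 0.209. The other Kcnj9 probe set differed by 0.02. Leaving out WT 24 h replicate 2 called 5 genes, all higher in Aag, with Kcnj9 at 0.80, A4galt at 0.60, Sh3bgrl3 at 0.63, Ovgp1 at 0.58 and Hes5 at 0.41, the remaining WT 24 h array being assumed to vary like the other groups.

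A4galt, the galactosyltransferase that makes the glycolipid globotriaosylceramide, was 5.74 to 6.34 on the Aag arrays (median 5.98) and 5.31 to 5.81 on the WT arrays. It differed by 0.49 (SE 0.09, adjusted p = 0.28), and the groups overlapped through Aag 24 h replicate 1 and WT 48 h replicate 1. Sh3bgrl3, a small thioredoxin-like protein, differed by 0.49 (SE 0.11, adjusted p = 0.28). Its signal was 4.83, 4.84, 4.78 and 4.82 on the Aag arrays at 24 h, against 4.33 and 4.74 on the WT arrays. The 48 h arrays read 4.89, 4.96 and 5.07 on the Aag arrays, against 4.05 and 4.43 on the WT arrays, again with no overlap. Hes5, a transcriptional repressor of the Notch pathway, differed by 0.33, and another probe set of Hes5 had the opposite sign. Fzd7, a Wnt receptor, Hoxd9, a homeobox factor of the developing trunk and limb, and Tnp1, a chromatin protein of spermatids, differed by 0.31, 0.24 and 0.43. The other probe set of Tnp1 differed by 0.06, and that of Ovgp1 by 0.07 against 0.46. Tax1bp3, a PDZ-domain protein, differed by 0.35 and was 6.68 to 6.96 on the Aag arrays and 6.42 to 6.58 on the WT arrays, and its other probe set differed by 0.0049.

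Among genes lower in Aag the 10 of smallest p were Kdelr2, Atg16l1, Polr1d, Ccnl2, Ifi35, Metap1, Tmem37, St3gal5, Fez2 and Ewsr1. Their differences ran from -0.24 for Atg16l1 to -0.42 for Polr1d, with limma adjusted p from 0.28 to 0.373. Polr1d, a subunit shared by RNA polymerases I and III, was 3.99, 4.03, 4.22 and 4.15 on the Aag arrays at 24 h, against 4.40 and 4.20 on the WT arrays. The later values were 3.79, 4.04 and 3.96 on the Aag arrays, against 4.69 and 4.47 on the WT arrays. The groups separated at 48 h, and at 24 h Aag replicate 3 was above WT replicate 2. Its other 2 probe sets differed by -0.09 and -0.08.

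Kdelr2, a receptor that returns escaped chaperones to the endoplasmic reticulum, differed by -0.25 (SE 0.05, adjusted p = 0.28). Within each time its Aag arrays were below both WT arrays, at 6.03 to 6.21 in Aag against 6.39 and 6.32 in WT at 24 h and at 5.49 to 5.56 in Aag against 5.82 and 5.80 in WT at 48 h. Another probe set of Kdelr2, and another of Metap1, had the opposite sign. Atg16l1, part of the complex that builds autophagosome membranes, was 5.82 to 5.96 in Aag against 6.20 and 6.18 in WT at 24 h and 5.75 to 5.81 in Aag against 5.93 and 5.96 in WT at 48 h. Fez2 did not overlap between genotypes over all 11 arrays, at 4.49 to 4.83 in Aag and 4.85 to 5.07 in WT. Ccnl2, a cyclin that acts in splicing, Ewsr1, an RNA-binding protein, and St3gal5, the sialyltransferase that makes the ganglioside GM3, differed by -0.38, -0.26 and -0.40. Without the female-typical arrays the 8 leading genes on the lower side also held Myh9, Hnrnpa2b1, Txnip, Gnb1 and Dhx16, at -0.25, -0.47, -0.35, -0.36 and -0.25.

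**Figure D2:**
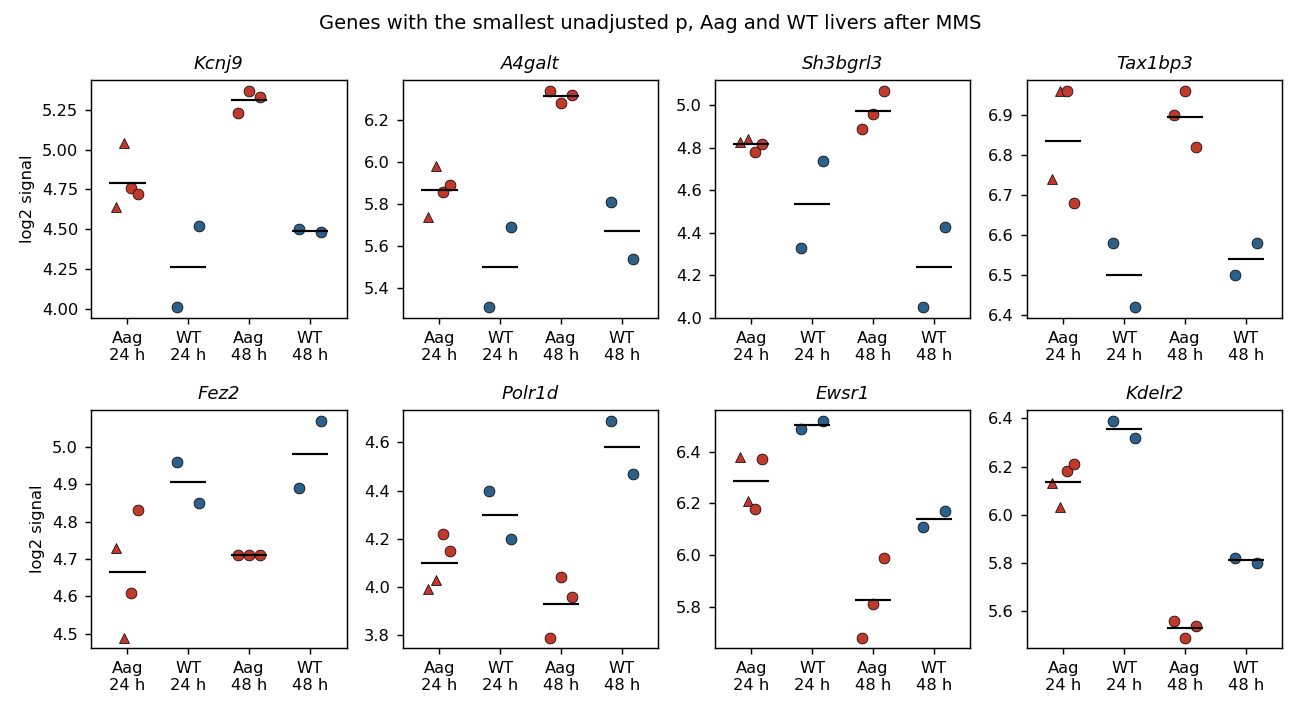
Log2 signal of 8 of the 20 genes with the smallest p, on each Aag and WT array at 24 and 48 h; triangles are Aag 24 h replicates 1 and 2, bars are group means. In the upper row (Kcnj9, A4galt, Sh3bgrl3, Tax1bp3) the Aag arrays sit high, in the lower row (Fez2, Polr1d, Ewsr1, Kdelr2) low, with differences of 0.66 at most.

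Complete separation was uneven in direction. Of 70 genes whose groups did not overlap (1.38%), 62 (1.22%) had all Aag arrays above all WT arrays and 8 (0.158%) had them below. The 8 were Becn1, Eif2s3y, Fars2, Fez2, Gpn1, Mettl26, Rtf2 and Slc25a20, listed here after their values were seen. Slc25a20, which carries acylcarnitines into mitochondria, was 6.44 to 6.88 in Aag and 6.92 to 7.25 in WT (-0.28, SE 0.09).

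The acute phase genes were lower in Aag more often than higher. Of 25 tested members (31 listed, 26 on the array), 18 were lower and 7 higher over both times, and 0 were called. At an unadjusted p under 0.05, 7 were lower and 1 higher, beside 5.25% and 5.62% of all genes. The median difference was -0.085, beside -0.002 for all genes. At 24 h 7 of the 25 were lower at that p, a direction in which 3.67% of all genes were, and 0 were higher, with a median of -0.195. Without the 2 female-typical arrays the median at 24 h was -0.151, with 4 lower and 0 higher at that p, beside 113 of all genes (2.23%), 33 of them higher (0.651%) and 80 lower (1.58%). At 48 h 1 was lower and 1 higher at that p, beside 7.87% and 10.2% of all genes. The median at 48 h was -0.038 and had no settled direction. It was -0.310 without WT 48 h replicate 1, 0.074 without WT 48 h replicate 2 and 0.061 with quantile normalization over the 11 arrays.

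Saa2, a serum amyloid A protein that hepatocytes secrete in the acute phase, had the largest difference of all genes at 24 h. Its signal was 5.70, 6.26, 10.46 and 7.19 on the Aag arrays, against 11.24 and 10.83 on the WT arrays. Later, at 48 h, it was 7.48, 6.81 and 6.61 on the Aag arrays, against 7.59 and 7.75 on the WT arrays. Every Aag array was below both WT arrays of its time, and Aag 24 h replicate 3 was close to them. The difference at 24 h was -3.64 (SE 0.99, 12.4-fold, limma adjusted p = 0.872), at 48 h -0.71 (SE 1.04), and over both times -2.25 (SE 0.80, adjusted p = 0.412). Leaving out Aag 24 h replicate 3 gave -4.66 with an adjusted p of 0.0012. With the replicate number as a block, which at 24 h sets only the 2 female-typical Aag arrays against WT, it was -5.06 with an adjusted p of 0.00161. Without those 2 arrays it was -2.21 with an adjusted p of 1. Saa2 is nearly identical to Saa1, and this probe set may not separate them.

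The promoters of Saa2 and of Orm2 are shown because these genes had the largest differences of the list, and to show the letters searched. The list was searched for TTGCNNAA, a form of the site of C/EBP factors, which drive acute phase genes in hepatocytes, and for TTCNNNGAA, the site of STAT factors, on both strands. Each line gives the 250 bases before the start of the gene, 5′ to 3′, on the plus strand of GRCm38.p6 as taken from RefSeq, with TTGCNNAA matches in capitals.
Saa2, chr7:46751583-46751832: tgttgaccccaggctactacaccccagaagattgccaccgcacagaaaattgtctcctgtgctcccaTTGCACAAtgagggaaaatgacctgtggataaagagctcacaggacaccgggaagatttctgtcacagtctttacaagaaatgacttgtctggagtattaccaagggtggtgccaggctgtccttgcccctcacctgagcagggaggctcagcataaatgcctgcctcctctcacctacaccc
Orm2, chr4:63362199-63362448: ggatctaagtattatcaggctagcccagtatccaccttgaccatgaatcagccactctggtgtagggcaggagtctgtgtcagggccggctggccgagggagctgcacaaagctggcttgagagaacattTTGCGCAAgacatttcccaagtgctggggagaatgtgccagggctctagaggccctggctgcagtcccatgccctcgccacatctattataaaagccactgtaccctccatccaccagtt
The match began 183 bases before the start of Saa2 and 120 bases before the start of Orm2, and neither window held TTCNNNGAA. Of 25 tested members 22 had a promoter in the table. TTGCNNAA was found in 9 of these 22 (40.9%) and in 9.55% of the 27025 promoters searched. TTCNNNGAA was found in 6 of the 22 (27.3%) and in 7.18% of all promoters.

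Orm1 and Orm2, the orosomucoids, are secreted lipocalins that bind drugs and steroids. Orm2 was 5.79, 6.39, 7.06 and 6.03 on the Aag arrays at 24 h, against 7.87 and 6.76 on the WT arrays, and 6.05, 6.18 and 6.29 in Aag against 6.53 and 6.69 in WT at 48 h. Only Aag 24 h replicate 3 was above the lower WT array of its time. The difference over both times was -0.73 (SE 0.25, adjusted p = 0.407) for Orm2 and -0.49 for Orm1. Haptoglobin, Hp, which captures free haemoglobin, was 10.47, 10.67, 11.32 and 10.73 on the Aag arrays at 24 h, against 11.29 and 11.38 on the WT arrays. Its Aag replicate 3 again lay with the WT arrays. Hpx, hemopexin, which captures haem, differed by -0.52 at 24 h and -0.08 at 48 h. Itih3 and Itih4, heavy chains of the inter-alpha inhibitors of the matrix, differed by -0.33 each over both times. Lcn2, the siderophore-binding lipocalin, was the member higher at an unadjusted p under 0.05, by 0.31 over both times and by 0.61 at 48 h (limma adjusted p = 0.0987). Its other probe set differed by -0.64 over both times, and with the mean of its probe sets the difference was -0.16.

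**Figure D3:**
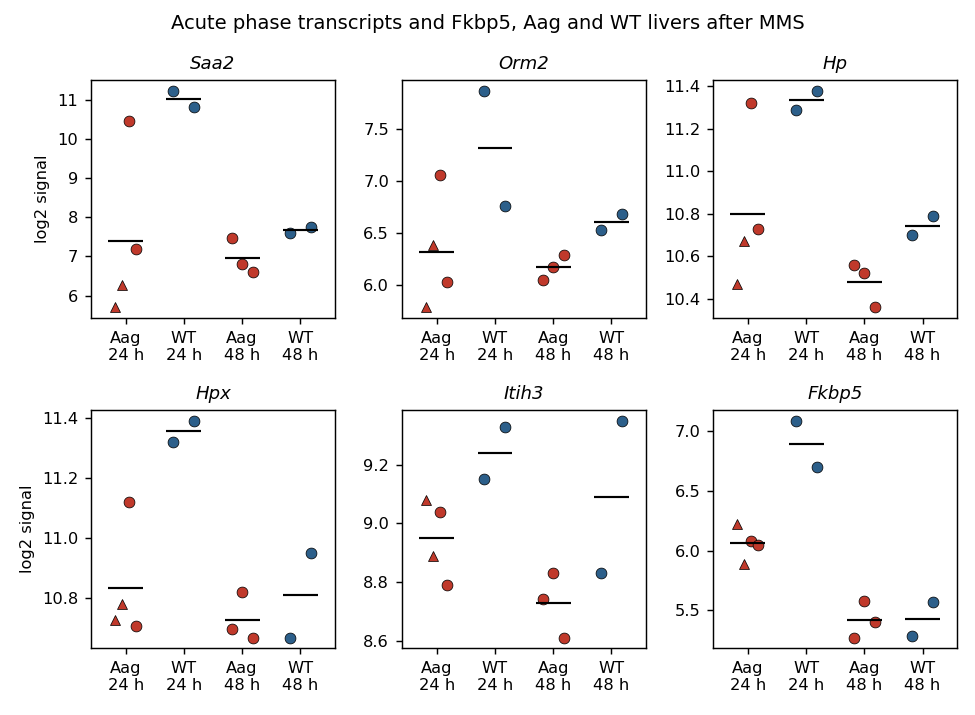
Log2 signal of 5 acute phase genes and of Fkbp5 on each Aag and WT array at 24 and 48 h; triangles are Aag 24 h replicates 1 and 2, bars are group means. Saa2 at 24 h spans 5.70 to 10.46 in Aag against 10.83 and 11.24 in WT, and Aag 24 h replicate 3 is the highest Aag array for Saa2, Orm2, Hp and Hpx at that time.

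The glucocorticoid receptor targets had no common direction, with 9 of 17 tested members higher and 8 lower and a median of 0.029. Fkbp5, a chaperone that damps the receptor and is induced by it, had the smallest p of all genes at 24 h and was picked out after its values were seen. Its signal was 6.22, 5.89, 6.08 and 6.05 on the Aag arrays at 24 h, against 7.09 and 6.70 on the WT arrays. At 48 h it was 5.27, 5.58 and 5.40 on the Aag arrays, against 5.28 and 5.57 on the WT arrays. The genotypes separated at 24 h and overlapped at 48 h. The difference at 24 h was -0.83 (SE 0.14, 1.78-fold, unadjusted p = 8.81e-05, limma adjusted p = 0.447), and -0.83 also without the female-typical arrays. The change of the difference between the times, 0.82, had an adjusted p of 0.373. Dusp1, a phosphatase of MAP kinases, was higher in Aag by 0.31 (SE 0.11). The hepatic metal-binding Mt1 and Mt2 differed by -0.23 (SE 0.37) and -0.26 (SE 0.36), and Igfbp1, the IGF-binding protein of fasting and stress, by 0.07 (SE 0.58). Igfbp1 varied within groups, at 2.47 to 4.6 in Aag and 5.20 and 3.31 in WT at 24 h.

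At 24 h alone 0 of 5071 genes (0%) were called, and 282 (5.56%) had an unadjusted p under 0.05. Of these 96 (1.89%) were higher in Aag and 186 (3.67%) lower. There were 164 without Aag 24 h replicate 2, and 491 and 493 without WT 48 h replicates 1 and 2, which enter at 24 h through the shared spread alone. Besides Fkbp5, the smallest p belonged to Susd6 (-0.58), Ifi30 (0.41), Sec31a (-0.31), Pctp (0.44) and Il1r1 (-0.69), all chosen after their values were seen. Il1r1, the receptor through which interleukin 1 starts the acute phase response in hepatocytes, was 4.45, 4.27, 4.76 and 4.68 on the Aag arrays, against 5.36 and 5.09 on the WT arrays. The 48 h arrays read 4.00, 4.36 and 3.98 in Aag, against 4.19 and 4.27 in WT. All Aag arrays were below WT at 24 h, and the groups overlapped at 48 h.

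At 48 h alone 0 genes (0%) were called, the smallest limma adjusted p was 0.0834, and 918 genes (18.1%) had an unadjusted p under 0.05. Of these 519 (10.2%) were higher in Aag and 399 (7.87%) lower. Without WT 48 h replicate 1 there were 1701 at that p. The leading genes were Msl2 (0.57), Use1 (-0.72), Lsm7 (-0.55), Hexa (-0.53) and Mbtd1 (0.57), chosen after their values were seen. Msl2, a ubiquitin ligase of the complex that acetylates histone H4, was 4.71, 4.54 and 4.69 on the Aag arrays, against 4.05 and 4.10 on the WT arrays. At 24 h it was 4.22 to 4.34 in Aag, against 4.54 and 4.53 in WT, so its order turned round between the times. Use1, which acts in transport back to the endoplasmic reticulum, was 5.31, 5.55 and 5.31 on the Aag arrays at 48 h, against 5.96 and 6.26 on the WT arrays. The number of calls at 48 h depended on the 2 WT arrays. Without WT 48 h replicate 1 limma called 399 genes, and without WT 48 h replicate 2 it called 271, each with the remaining WT array assumed to vary like the other groups.

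The test of the difference between 48 and 24 h called 0 of 5071 genes (0%), with 537 (10.6%) at an unadjusted p under 0.05, 305 (6.01%) with a higher difference at 48 h and 232 (4.58%) with a lower one. Msl2 had the smallest adjusted p, 0.0883, for a change of 0.82 (SE 0.11). Without WT 48 h replicate 2 it called 193. The number at an unadjusted p under 0.05 was 913 when WT 48 h replicate 1 was left out, 1130 for WT 48 h replicate 2 and 261 for WT 24 h replicate 2. With the replicate number as a block, 8 genes were called for this change and 11 at 24 h. Those at 24 h were Cyp17a1, Cyp2b9 and Sult2a2, higher in Aag, and Cyp4a12b, Cyp7b1, Eif2s3y, Gstp1, Hsd3b5, Hspa5, Saa2 and Selenbp1, lower in Aag. The block left only replicates 1 and 2 of each group to be compared, which at 24 h were the female-typical Aag arrays.

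Several lists of housekeeping and metabolic genes were lower in Aag at 48 h, where the hybridization controls moved with genotype as well (8.11 to 8.29 in Aag, 7.55 and 7.19 in WT). The part of this in the results was not tested. Of 23 targets of PPARα, the receptor that switches on fatty acid oxidation, 22 were lower at 48 h, 9 of them at an unadjusted p under 0.05 (7.87% of all genes were lower at that p), with a median of -0.34 beside 0.008 for all genes. At 24 h the median was 0.022. Acaa1a, a peroxisomal thiolase, was 7.45, 6.99 and 7.66 on the Aag arrays at 48 h, against 8.11 and 8.04 on the WT arrays. At 24 h it was 7.66 to 8.31 in Aag, against 8.27 and 8.17 in WT. Acadm, the medium-chain acyl-CoA dehydrogenase, and Cpt2, the inner carnitine palmitoyltransferase, differed by -0.46 and -0.37 at 48 h. Cyp4a14, a fatty acid hydroxylase, differed by 0.73 at 24 h and by -1.12 at 48 h, neither past an unadjusted p of 0.05.

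Of 29 proteasome subunits 28 were lower over both times, with a median of -0.164. At an unadjusted p under 0.05, 4 were lower, beside 5.25% of all genes. Psmb5, a catalytic subunit, was the member that was higher (0.10). At 48 h 27 were lower, 8 at that p (7.87% of all genes were lower at that p), with a median of -0.26. Psmb6, another catalytic subunit, was 6.37, 6.76 and 6.62 on the Aag arrays at 48 h, against 7.01 and 7.27 on the WT arrays. At 24 h it was 6.47 to 6.72 in Aag, against 6.77 and 6.53 in WT. The list's median at 48 h depended on the WT array, at -0.447 without WT 48 h replicate 1 and -0.048 without WT 48 h replicate 2.

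The 28 subunits of the respiratory chain, which passes electrons to oxygen in mitochondria, had a median of -0.258 at 48 h and 0.024 at 24 h. At 48 h 23 were lower. At an unadjusted p under 0.05, 8 were lower and 1 higher, beside 7.87% and 10.2% of all genes. Cox4i1, a subunit of cytochrome c oxidase, differed by 0.20 at 24 h and 0.19 at 48 h, with the opposite sign in another probe set (-0.02 over both times). Ndufb5, of complex I, was 8.04, 7.93 and 8.04 on the Aag arrays at 48 h, against 8.66 and 8.62 on the WT arrays. The 24 tested NRF2 targets, enzymes of glutathione and detoxification, had a median of -0.261 at 48 h, with 7 lower and 3 higher at an unadjusted p under 0.05, beside 7.87% and 10.2% of all genes, so the number higher was near the share of all genes. Ugdh, which makes UDP-glucuronic acid, was 7.86, 7.89 and 8.06 on the Aag arrays at 48 h, against 8.52 and 8.80 on the WT arrays. The 22 tested proteins of the cytosolic ribosome had a median of -0.324 at 48 h and 0.049 at 24 h. Quantile normalization over the 11 arrays moved the 48 h medians to -0.245 for PPARα targets, -0.175 for the proteasome, -0.095 for the respiratory chain and -0.213 for NRF2 targets. Without WT 48 h replicate 2 the medians were -0.227, -0.048, -0.137 and -0.154.

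**Figure D4:**
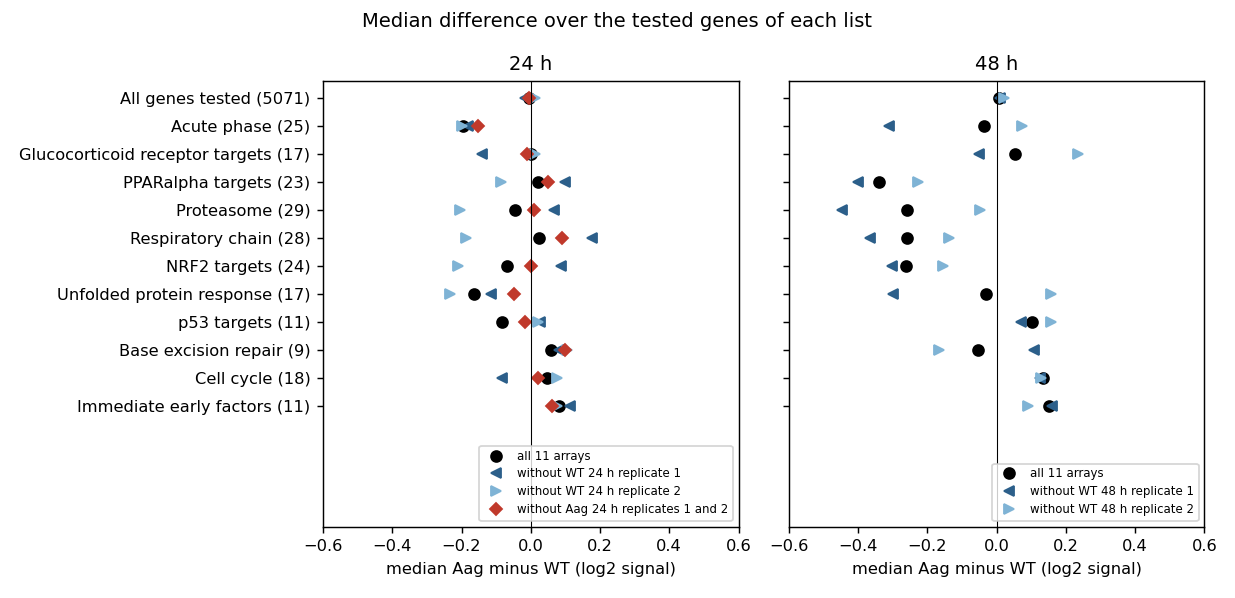
Median difference between Aag and WT livers (log2 signal) over the tested genes of 11 lists and of all genes, at 24 h (left) and 48 h (right), with the number of genes in brackets. Black circles use all 11 arrays and coloured marks leave out the arrays named; at 48 h the PPARα, proteasome, respiratory chain and NRF2 medians lie left of 0 in each of the 3 fits, from -0.048 to -0.447, and those of acute phase, glucocorticoid receptor, unfolded protein response and base excision repair genes change side with the WT array left out.

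Genes that answer DNA damage showed small differences over both times. The list of base excision and alkylation repair holds glycosylases as well as the steps after them. It had 9 tested genes (22 listed, 17 on the array), with a median of 0.036. An unadjusted p under 0.05 was reached by 1 member, beside 10.9% of all genes. This member was Ung, the uracil glycosylase, at 6.24, 6.40, 6.53 and 6.40 on the Aag arrays at 24 h, against 6.14 and 6.31 on the WT arrays. Its 48 h values were 6.74, 6.73 and 6.70 in Aag, against 6.48 and 6.49 in WT, a separation that 24 h did not show. Over both times it differed by 0.20, and its other probe set by 0.01. Parp1, the sensor of strand breaks, Apex1, which cuts abasic sites, and Lig3, the ligase of the pathway, differed by -0.05 (SE 0.08), 0.04 (SE 0.11) and 0.12 (SE 0.07), Lig3 with another probe set at -0.06. Xrcc1, the scaffold of the pathway, differed by -0.17 (SE 0.24), and its WT 48 h arrays read 6.22 and 4.64.

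The 9 other repair and checkpoint genes had a median of 0.044 over both times, -0.074 at 24 h and 0.164 at 48 h, where the hybridization controls moved with genotype. At 48 h 4 were higher and 0 lower at an unadjusted p under 0.05, beside 10.2% and 7.87% of all genes. Over both times Chek2, a checkpoint kinase, was higher by 0.26 (SE 0.07, limma adjusted p = 0.373). Rpa2, a subunit of the single-strand binding protein, was higher by 0.29 (SE 0.09, limma adjusted p = 0.407). Rpa2 was 4.19, 4.11 and 4.21 on the Aag arrays at 48 h, against 3.70 and 3.68 on the WT arrays. At 24 h it was 3.77 to 3.96 in Aag, against 3.6 and 3.93 in WT. Of 11 p53 targets 7 were higher and the median was 0.088. At an unadjusted p under 0.05, 1 was higher and 2 were lower, beside 5.62% and 5.25% of all genes. Cdkn1a, the cell cycle inhibitor p21, differed by 0.11 (SE 0.07) and was 6.20 to 6.5 in Aag and 6.12 to 6.33 in WT. Mdm2, the ubiquitin ligase of p53, differed by -0.06 (SE 0.11). Phlda3, which restrains Akt, was the higher of the 3 (0.17), and Perp, a desmosome protein, and Ei24, an endoplasmic reticulum protein, were the lower ones (-0.23 and -0.19).

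Of 18 cell cycle genes 12 were higher over both times, with a median of 0.067. At 48 h, where the hybridization controls moved with genotype, the median was 0.133. Over both times 3 were higher and 0 lower at an unadjusted p under 0.05, beside 5.62% and 5.25% of all genes. Mcm3, of the replication helicase, led them at 0.30 (SE 0.08, limma adjusted p = 0.367). Its signal was 4.55, 4.63, 4.45 and 4.53 on the Aag arrays at 24 h, against 4.32 and 4.24 on the WT arrays. Its 48 h values were 4.69, 4.52 and 4.55 in Aag, against 4.07 and 4.42 in WT, with no overlap over the 11 arrays. Mcm5, of the same helicase, and Aurkb, a kinase of chromosome segregation, differed by 0.19 each. Of 11 immediate early factors 10 were higher, 4 at an unadjusted p under 0.05 (5.62% of all genes were higher at that p), with a median of 0.105. The 4 were Junb and Fosb, components of the AP-1 factor, Fosl2 of the same family, and Dusp1. Junb was 5.62 to 5.86 in Aag and 5.33 to 5.67 in WT, with WT 48 h replicate 1 inside the Aag range. Early arrays, 6 and 12 h after MMS, had a median of 0.001 for these 11 genes.

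The unfolded protein response, by which the endoplasmic reticulum makes more chaperones, had 14 of 17 members lower and a median of -0.168, with 0 members at an unadjusted p under 0.05. Hspa5, the main chaperone there, was 6.41, 6.08, 6.88 and 7.04 on the Aag arrays at 24 h, against 7.42 and 7.05 on the WT arrays. The lowest 2 were the female-typical arrays, and without them the list's median at 24 h was -0.048 instead of -0.164. At 48 h Hspa5 was 7.20, 7.62 and 7.15 on the Aag arrays, against 7.05 and 7.48 on the WT arrays, which overlapped.

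Markers of other liver cells were measured beside these lists. In a whole liver, more cells of a type and more RNA per cell cannot be told apart. Of 12 Kupffer cell and macrophage markers (18 listed) 11 were higher in Aag, with a median of 0.081 and 0 at an unadjusted p under 0.05, and their mean signal was 5.07 to 5.41 on the Aag arrays and 5.03 to 5.37 on the WT arrays. All 6 neutrophil markers (13 listed) were higher over both times, 1 of them at that p, as were 5.62% of all genes. The 1 marker was Lcn2, also in the acute phase list, whose other probe set differed by -0.64. Lcn2 (3.73 to 4.74) and Ltf (3.92 to 4.42) lay near the array medians, and Camp (5.52 to 5.85) was brighter. At 48 h 4 of the 6 were higher at that p, as were 10.2% of all genes. The mean signal of the 6 was 5.34 to 5.43 on the Aag arrays at 48 h, against 5.08 and 5.12 on the WT arrays. At 24 h it was 5.19 to 5.28 in Aag against 5.17 and 5.32 in WT. Prtn3, a granule protease, differed by 0.38 at 48 h. On these 48 h arrays the hybridization controls (8.11 to 8.29 in Aag, 7.55 and 7.19 in WT) and the interquartile ranges moved with genotype too, and their part was not tested. Of 9 stellate cell and fibroblast markers 8 were higher, 2 at an unadjusted p under 0.05, beside 5.62% of all genes. The mean signal of the 9 was 5.80 to 6.14 in Aag and 5.68 to 6.00 in WT. Another probe set had the opposite sign for Reln (-0.11), Bgn (-0.07) and Timp1 (-0.03). Col3a1 had other probe sets at -0.02 and 0.21. The hepatocyte markers had a median of 0.015 and a mean signal of 9.64 to 9.81 in Aag and 9.66 to 9.80 in WT. Their part in the other results was not tested.

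Transcripts that differ between the sexes in mouse liver set Aag 24 h replicates 1 and 2 apart from the other 9 arrays. Cyp2b9, a female-typical cytochrome P450, was 7.76 and 8.17 there and 3.23 to 3.83 elsewhere. Hsd3b5, a male-typical steroid dehydrogenase, was 3.53 and 2.96 there and 7.29 to 8.45 elsewhere, and Gstp1, a glutathione transferase higher in males, was 8.96 and 9.08 there and 10.84 to 11.59 elsewhere. The Y-linked Eif2s3y was 2.52 and 2.5 there and 3.70 to 4.47 elsewhere. The labels give no sex. Of 16 male-typical genes 16 were lower in Aag over both times, with a median of -0.357, and without these 2 arrays the median was -0.031. The 8 female-typical genes had medians of 0.185 with and 0.043 without them. No member of either list was called.

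**Figure D5:**
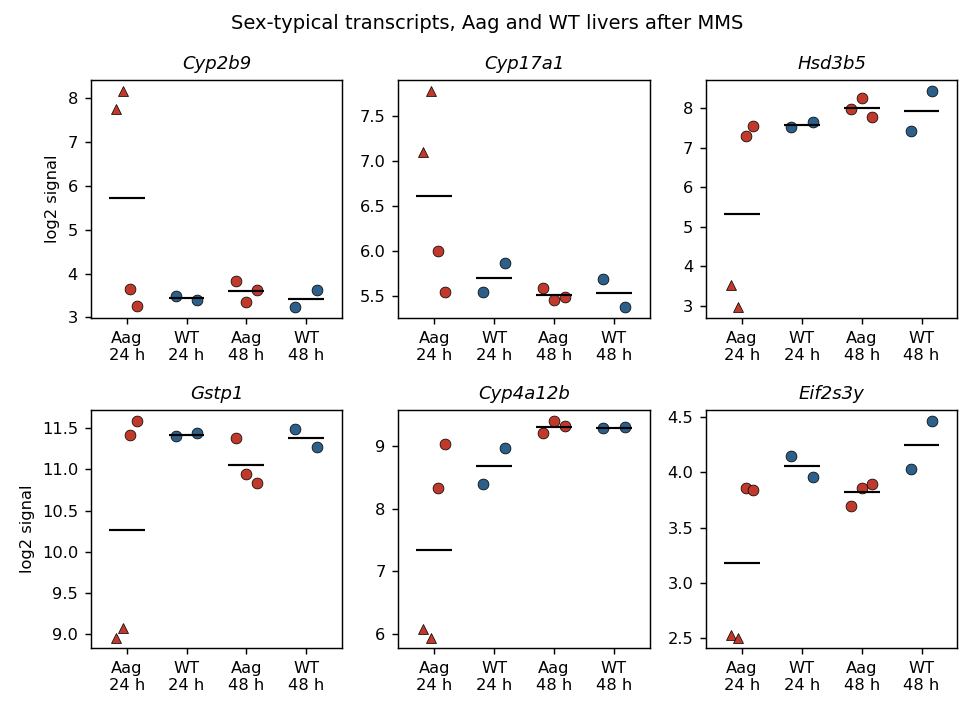
Log2 signal of 2 female-typical transcripts (Cyp2b9, Cyp17a1), 3 male-typical transcripts (Hsd3b5, Gstp1, Cyp4a12b) and the Y-linked Eif2s3y on each Aag and WT array at 24 and 48 h; bars are group means. The triangles, Aag 24 h replicates 1 and 2, stand apart from the other 9 arrays in all 6 panels, as with 7.76 and 8.17 for Cyp2b9 against 3.83 at most.

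A targeted allele carries a stretch of the chromosome of the cells it was made in, so the genes beside Mpg on mouse chromosome 11 were looked at. RefSeq (GRCm38.p6) places 6 tested genes within 15 protein-coding genes of Mpg, in order of distance Snrnp25, Hba-a1, Stk10, Fbxw11, Npm1 and Tlx3. Their median difference was -0.007. Snrnp25, of the minor spliceosome and separated from Mpg by 1 gene, was 4.65 to 4.78 in Aag and 4.76 and 4.78 in WT at 24 h. At 48 h it was 4.50, 4.58 and 4.56 on the Aag arrays, against 4.84 and 4.88 on the WT arrays, a difference of -0.31 (unadjusted p = 0.00131) that was -0.07 at 24 h. Hba-a1, alpha globin, whose probe set may also read its near-identical neighbour Hba-a2, differed by 0.17 (SE 0.16). Of the other 4, Npm1, a nucleolar chaperone, differed most, by -0.13 (SE 0.13).

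The arrays at 6 and 12 h after MMS, 3 and 2 from Aag and 2 and 3 from WT livers, share no sample with the late ones and were set beside them. They were normalized on their own, and limma called 4 of the 5071 genes (0.0789%). At an unadjusted p under 0.05 there were 216 (4.26%), of which 177 (3.49%) were higher in Aag and 39 (0.769%) lower. That number was 735 without WT 6 h replicate 1 and 946 with the replicate block. The block called 14 genes after adjustment, and leaving out Aag 12 h replicate 2 called 0. Itih4 differed there by -1.25 (adjusted p = 0.00699), Bhmt, of the methionine cycle, by 1.10, the carbonic anhydrase Car14 by 0.91 and the plasma inhibitor Serpina10 by -0.94 (adjusted p = 0.00884 each). At 24 and 48 h these 4 differed by -0.33, 0.08, -0.01 and -0.01. Of the 20 leading late genes 3 had the same sign early, 0 of them at an unadjusted p under 0.05. These early signs leaned on WT 6 h replicate 2. Among early WT arrays it was highest for the leading genes higher in Aag late, except Tax1bp3. It was lowest for those lower in Aag late, except Kdelr2, Atg16l1 and St3gal5. A4galt read 7.16 there (5.06 to 5.98 on the other early WT arrays) and Ccnl2 4.77 (5.25 to 6.33). The signs were not counted without that array. Of the 551 late genes at an unadjusted p under 0.05, 123 had the same sign early, and 8 of these also reached that p early. The same counts were not made over all 5071 genes.

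The acute phase list had a median of -0.49 early, with 22 of 25 members lower, against -0.085 late. Saa2 was 6.86, 9.18 and 6.30 on the Aag arrays at 6 h, against 11.60 and 10.81 on the WT arrays. At 12 h it was 10.11 and 9.74 on the Aag arrays, against 11.45, 10.98 and 11.24 on the WT arrays. The early difference of -2.53 (SE 0.61) had a limma adjusted p of 0.328. Itih4 was 8.16 to 8.46 on the early Aag arrays and 9.25 to 9.81 on the early WT arrays, without overlap, whereas the late ranges of 7.85 to 8.59 in Aag and 8.25 to 8.81 in WT overlapped. The 3 fibrinogen chains Fga, Fgb and Fgg differed by -0.56, -0.84 and -0.82 early and by 0.05, -0.02 and -0.05 late. The complement chains of macrophages C1qa, C1qb and C1qc differed by 0.92, 0.73 and 0.73 early and by 0.12, -0.01 and 0.01 late. Whether the early and the late differences differ from each other was not tested.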

How the data were processed

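The values analysed were the authors' deposited log2 signals, 1 per probe set and array. The log2 unit was inferred from the late values, which ran from 0.689 to 12.69. The sources used here do not give the background handling, probe summary or scaling. Of 12488 probe sets 66 controls were left out, 10833 had 1 gene symbol in the platform annotation, 396 several and 1193 none. Through RefSeq identifiers 10817 were found and 0 symbols changed. Array medians of the 11 late arrays spanned 0.073, under the limit of 0.1 for scaling, so values were used as deposited. The 10 early arrays spanned 0.131 and were quantile normalized on their own. The brightest probe set represented each gene.

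Tests used limma 3.58.1 in R 4.3.3 with its trend option, adjusted by Benjamini-Hochberg over the 5071 genes. The fit over both times had 8 residual degrees of freedom, and that with 1 mean per group 7. Python 3.11.15 with matplotlib 3.10.9 made the figures.

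Replicate numbers are shared between genotypes. Deviations of same-numbered arrays from their group means correlated at 0.198 and 0.199 at 24 h and at 0.112 and 0.294 at 48 h, so the block with replicate number is given where it changes a count. The 2 deviations within a WT group mirror each other.

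Named genes were Mpg, the 10 genes of smallest p in each direction, 8 in each direction without Aag 24 h replicates 1 and 2, up to 4 members of each list described and the neighbours of Mpg. Genes outside this rule were named with their values known. The comparison, its 34 gene lists and 10 marker lists were chosen with earlier results of these data known, and chromosome neighbours of Mpg that RefSeq places elsewhere were dropped. Alternatives covered scaling, filter, probe sets, trend, array weights, samples in the fit, the replicate block, the female-typical arrays and each array left out. Array columns without a labelled sample numbered 0.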

Additional observations from a re-analysis of the deposited data

Results flagged for a closer look

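In the Aag 24 h group, the only late group with 4 arrays, 1 array lay far from the other 3 for 6 of 90 named genes (6.67%), by Dixon's test, and chance alone does this in about 1 in 20 groups. In replicate 2 Dnajc3, a chaperone of the endoplasmic reticulum, read 4.05 (others 4.35 to 4.40), Sec61b, of the protein-conducting channel, 6.99 (others 7.61 to 7.73) and Rpa2 3.77 (others 3.93 to 3.96). In replicate 4 Perp read 5.86 (others 5.97 to 5.99) and Rrm2b, a ribonucleotide reductase subunit induced by p53, 4.04 (others 4.25). In replicate 1 Ccne1, cyclin E1, read 6.11 (others 6.22). All 6 were the lowest array of the group.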

How the results depend on the processing

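The values as deposited were the setting used for the late arrays, so that alternative was not run separately. Over both times 0 genes were called under every alternative but 2. Array weights, which gave WT 24 h replicate 1 a weight of 7.49 against 0.196 to 2.08 for the others, called 1194, and leaving out 1 array gave 0 to 5. The 5, without WT 24 h replicate 2, were A4galt, Hes5, Kcnj9, Ovgp1 and Sh3bgrl3. At 24 h the replicate block called 11 genes and leaving out 1 array gave 0 to 2, where the 2, without Aag 24 h replicate 3, were Saa2 and Bhlhe40. At 48 h leaving out 1 array gave 0 to 399. Leaving out WT 48 h replicate 1 gave 399, replicate 2 gave 271, and either WT 24 h array gave 12. The WT 24 h arrays enter at 48 h through the shared spread alone. For the change between the times the mean of the probe sets called 1 gene (Msl2), the replicate block 8 and leaving out 1 array 0 to 193, the last without WT 48 h replicate 2. At 6 and 12 h the values as deposited called 0, array weights 106, the replicate block 14 and leaving out 1 array 0 to 7. The block changed no other count of calls. At an unadjusted p under 0.05 the count over both times was 2020 with array weights, 833 with no brightness filter, which tests more genes, and 178 with group means over all 21 treated arrays. With these 3 settings the counts were 269, 386 and 100 at 24 h, 258, 1426 and 354 at 48 h, and 259, 860 and 235 for the change. At 6 and 12 h array weights gave 909. Quantile normalization over the 11 arrays was chosen after seeing the data.

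Of 2160 differences of 90 named genes under alternatives 31, in 15 genes, had the opposite sign. At 48 h alone these were Cyp17a1 (-0.023), Cyp4a12b (0.017), Cyp7b1 (0.111), Fbxw11 (0.139), Hba-a1 (-0.081), Hsd3b5 (0.068), Hspa5 (0.057) and Tlx3 (0.020), and at 24 h alone Cyp4a14 (0.730), Ogg1 (-0.057) and Pcna (0.059). Cyp4a12b was 0.011 without Aag 24 h replicates 1 and 2 and with their pattern as a term, and Fbxw11 0.035 in both. With the mean of the probe sets Fbxw11 was 0.039, Lcn2 -0.163 and Psmb4 0.006. With array weights Errfi1 was 0.070 and Tlx3 0.031, and Tlx3 was 0.041 with the replicate block. With 1 array left out the range was -0.945 to 0.206 for Cyp4a14, -0.066 to 0.069 for Fbxw11, -0.228 to 0.023 for Npm1 and -0.106 to 0.082 for Tlx3. The cause was not tested.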

Other observations

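Cholesterol synthesis and uptake genes had a median difference of 0.158 at 24 h, with 12 of 14 higher in Aag, which turned to -0.038, with 5 higher and 9 lower, without Aag 24 h replicates 1 and 2, the female-typical arrays. At 48 h their median was -0.286, with 13 of 14 lower, and 0 members had an unadjusted p under 0.05 at either time. Their mean signal was 5.82 to 6.62 on the Aag arrays at 24 h, against 5.94 and 6.15 on the WT arrays, and 5.66 to 6.17 in Aag against 5.96 and 6.36 in WT at 48 h. Fatty acid synthesis genes had medians of 0.070 at 24 h, or -0.032 without those 2 arrays, and -0.243 at 48 h. Genes of MHC class I and the immunoproteasome, which present peptides, had medians of 0.099 at 24 h and -0.230 at 48 h, with 4 of 12 lower and 1 higher at an unadjusted p under 0.05 at 48 h, where 7.87% of all genes were lower and 10.2% higher at that p. The change of these medians between the times was not tested.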
